A study of Mus musculus with 47 samples.

Results

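The genes described here are the prolactin receptor and 8 genes that work with it: the receptor *Prlr*, its kinase *Jak2*, the transcription factors *Stat5a* and *Stat5b*, the feedback genes *Cish*, *Socs1* and *Socs2*, the kinase *Akt1* and the caveolar protein gene *Cav1*. They were chosen by name, by matching the Ensembl identifiers of the deposited table to these symbols. All 9 were found among its 17078 genes. They were followed in 46 RNA-seq libraries, 24 from luminal cells and 22 from basal cells of the mammary epithelium, sorted from FVB/N mice as Lin-CD24+ cells that were CD29lo (luminal) or CD29hi (basal). The 8 time points were never-pregnant mice at 10 weeks (W10) and 4 months of age (M4), pregnant mice at day 3.5 (P3.5) or day 14.5 (P14.5), lactating mice at day 3 (L3) or day 10 (L10), and mice 2 days after forced weaning (Id2) or 4 weeks after it (Iw4). Each condition had 3 libraries, except basal P14.5 and basal L10 with 2 each. A replicate was a separate sort of glands pooled from 4 mice, and the luminal and basal libraries with the same replicate number came from the same sort. The libraries held 4398806 to 20023054 reads on genes. Values are CPM (read counts scaled to the library's effective size), and 3 reads, taken as the smallest level that can be measured, corresponded to 0.17 to 1.05 CPM (counting error only).

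Prolactin is a pituitary hormone that drives the growth of milk-producing alveoli in pregnancy and keeps up milk secretion. Binding of prolactin activates JAK2, which is held on the inner side of the receptor. JAK2 then phosphorylates STAT5A and STAT5B, which move to the nucleus and switch on milk protein genes and also *Cish* and other SOCS genes, whose products bind the receptor complex and shut it down. AKT1 is a survival and metabolic kinase that prolactin and insulin signals activate. Caveolin-1, the coat protein of membrane pits called caveolae, is known to hold JAK2 back in mammary cells.

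The sorted populations were checked against 8 luminal and 8 basal marker genes. In luminal libraries the luminal markers summed to between 2982 and 7139 CPM and the basal markers to between 76.6 and 2464 CPM. In basal libraries other than Id2, the basal markers summed to between 11255 and 70414 CPM. The luminal markers summed to between 203 and 1831 CPM over all 22 basal libraries. Of the 3 basal libraries of Id2, replicates 2 and 6 stood apart. The basal markers of the 3 summed to 1660 CPM (replicate 2), 18057 CPM (replicate 4) and 1169 CPM (replicate 6). Replicate 2 held 9485 CPM of 6 endothelial markers, led by *Cdh5* at 4160 CPM, and replicate 6 held 71669 CPM of 6 fibroblast markers, led by *Col1a1* at 27787 CPM. Replicate 4 held 10458 CPM of 5 pericyte markers, led by *Rgs5* at 6932 CPM, within the range of the basal lactation libraries, and 10155 CPM of fibroblast markers, led by *Col1a1* at 4359 CPM, above each of them. Fibroblast markers were also high in luminal Id2 replicate 6 (5192 CPM, at most 788 CPM in luminal libraries outside Id2) and in the basal P14.5 libraries (11676 and 5943 CPM), and their part in the values of those libraries was not tested. Results that rest on basal Id2 are given below with this in mind, and for some of them a value with Id2 left out is given. RNA was measured in sorted bulk populations, in which fewer cells of a type and less RNA per cell cannot be told apart.

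**Figure D1:**
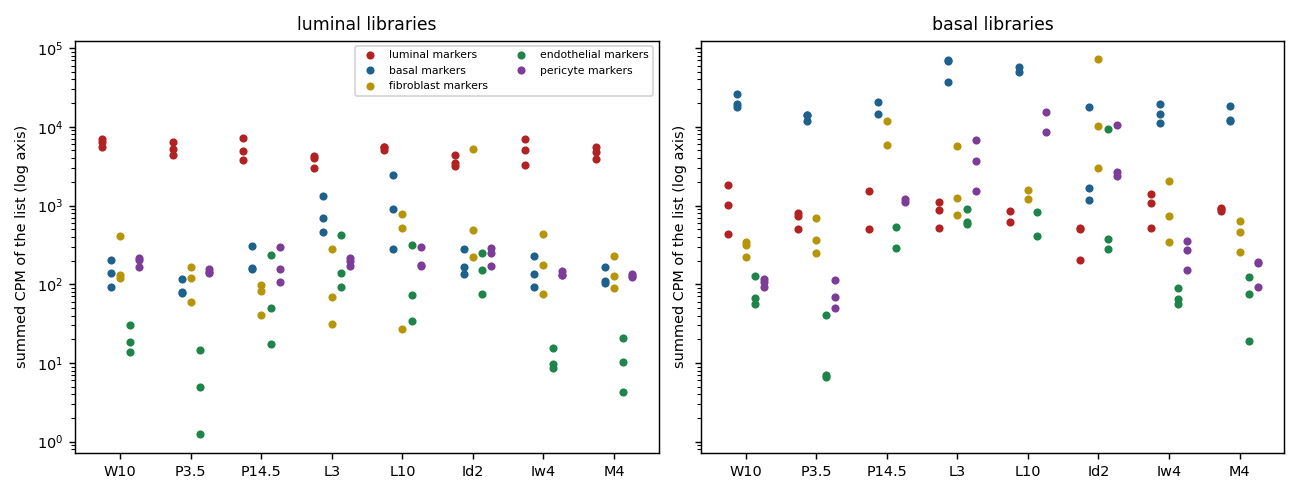
Summed CPM (log axis) of marker genes of 5 cell types in each luminal library (left) and each basal library (right) at the 8 time points. Basal libraries of L3 and L10 carry pericyte sums of 1513 to 15269.9 CPM, against 92.0 to 192 CPM at W10 and M4, and 2 of the 3 basal Id2 libraries carry basal sums of 1660 and 1169 CPM.

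Between the cell types, *Prlr* was lower and *Cav1* and *Socs1* were higher in basal cells. A gene was called at a fold of at least 2 and an adjusted p under 0.01 (limma, Benjamini-Hochberg over all genes), and averaged over the 8 time points 3 of the 9 genes were called, beside 21.0% of all genes. *Prlr* was 12.4-fold lower in basal cells (log2 fold change -3.63 ± 0.29 SE, adjusted p = 1.3e-13). *Cav1* was 14.2-fold higher (3.83 ± 0.19, adjusted p = 2.2e-19), and *Socs1* was higher by 1.41 ± 0.22 on the log2(CPM + 1) scale (adjusted p = 7.1e-07). *Stat5a* (-0.82 ± 0.12) and *Stat5b* (-0.81 ± 0.14) were each 1.76-fold lower in basal cells, with adjusted p of 3.1e-07 and 2.2e-06, which is under the fold required. *Jak2* was 1.43-fold lower (-0.51 ± 0.10, adjusted p = 3.6e-05). For *Cish* (0.15 ± 0.13), *Socs2* (0.11 ± 0.15) and *Akt1* (-0.20 ± 0.09) the differences were 1.11-, 1.08- and 1.15-fold, with adjusted p of 0.32, 0.55 and 0.04. With Id2 left out of the average, *Prlr*, *Cav1* and *Socs1* were called at log2 fold changes of -3.74, 3.85 and 1.39.

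At the single time points 20 of 72 gene-by-time-point comparisons were called. *Cav1* was called higher in basal cells at each of the 8 time points, with log2 fold changes from 2.63 at W10 to 4.66 at P14.5. *Prlr* was called lower at 7 of them, from -2.90 at Id2 to -4.59 at L10, and at P14.5 its change was -2.56 ± 0.90 (adjusted p = 0.035). The basal P14.5 libraries held 1213 and 1111 CPM of pericyte markers and 539 and 286 CPM of endothelial markers. In basal libraries of W10 and M4 these sums were 92.0 to 192 and 18.9 to 127 CPM. The part of these cells in the P14.5 values was not tested. With 1 library left out, *Cav1* ran from 2.26 to 2.86 at W10 and from 3.89 to 5.52 at P14.5. *Prlr* then ran from -3.69 to -2.48 at Id2, -5.90 to -3.63 at L3 and -5.45 to -3.72 at L10. The other calls were *Cish*, higher in basal cells at W10 (1.23 ± 0.35), *Jak2*, lower at P3.5 (-1.02 ± 0.28) and L10 (-1.14 ± 0.31), and *Stat5a*, lower at L3 (-1.35 ± 0.33) and L10 (-1.33 ± 0.37). The share of all genes called was 14.2% at W10, 11.9% at P3.5, 12.9% at P14.5, 25.8% at L3, 24.7% at L10, 21.6% at Id2, 11.5% at Iw4 and 12.4% at M4, and these set the scale for 3, 3, 1, 3, 4, 2, 2 and 2 of the 9 genes in the same order. In a fit with the sort as a block, *Stat5b* at L3 (adjusted p = 0.0055) and *Socs1* at P3.5 (adjusted p = 0.0064) were also called. The calls of *Cish* at W10 and *Jak2* at P3.5 were each lost in 5 of the 46 fits that left out 1 library, which covers 5 of the 6 libraries compared in each case. That of *Cish* at W10 was also lost with median-ratio scaling (1.18, adjusted p = 0.012) and with scaling without milk protein genes (1.09, adjusted p = 0.018). The call of *Stat5a* at L3 was lost without luminal replicate 6 (-0.95) and at L10 without luminal replicate 4 (-1.17), luminal replicate 6 (-1.16) or basal replicate 6 (-0.86). That of *Jak2* at L10 was lost without luminal replicate 5 (-0.97) or basal replicate 6 (-0.72). The call of *Prlr* was lost in 4 such fits at Id2, 3 at Iw4 and 2 at M4, with adjusted p between 0.01 and 0.05, and with edgeR at Id2 (adjusted p = 0.023) and Iw4 (adjusted p = 0.012).

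**Figure D2:**
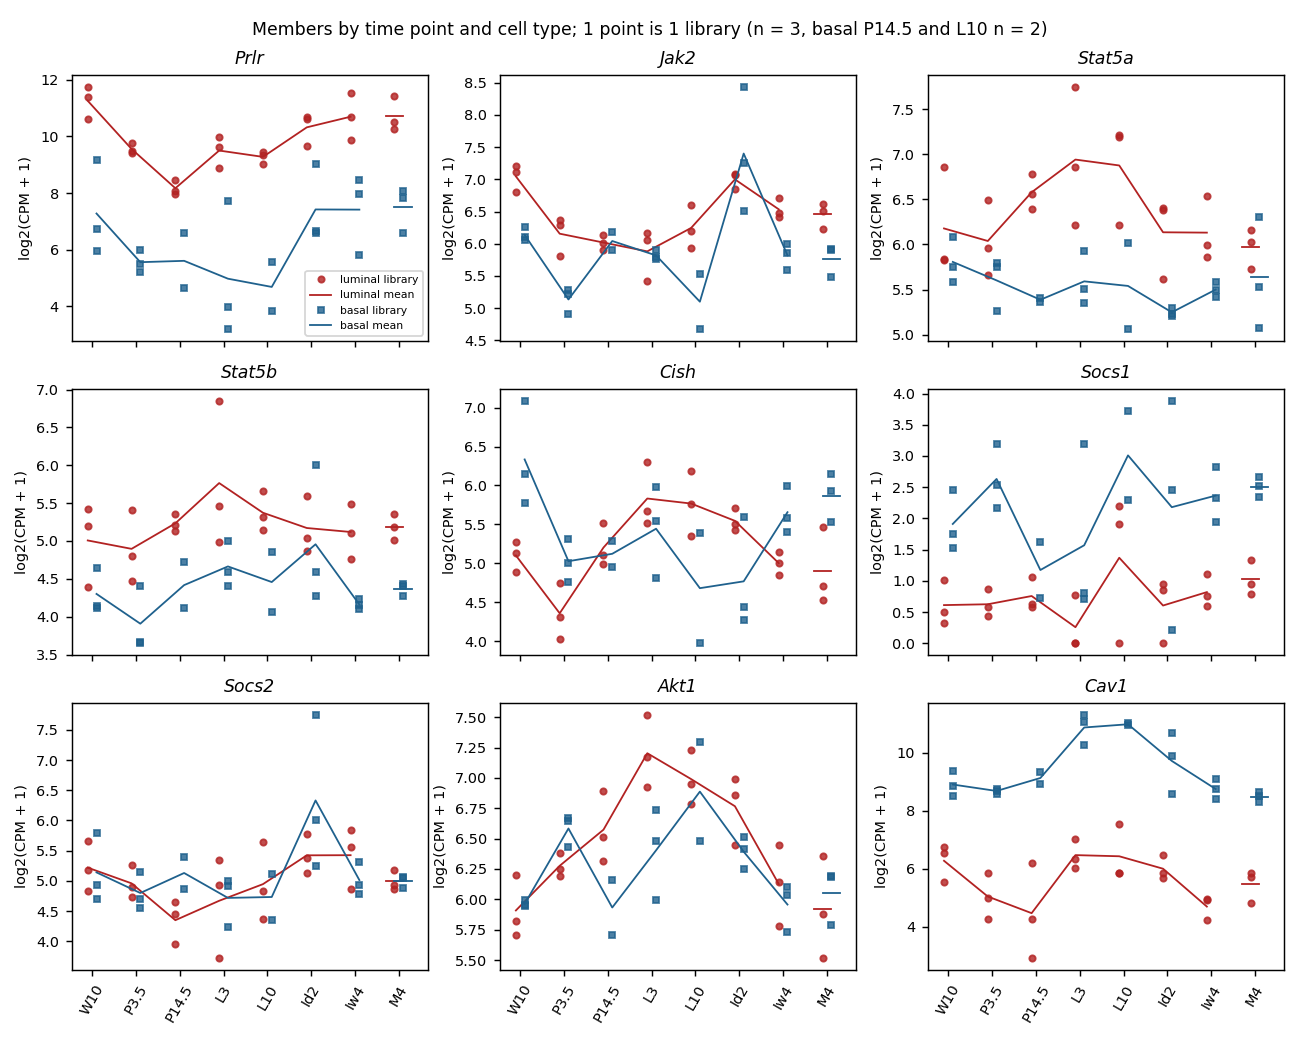
Level of each of the 9 genes as log2(CPM + 1) in every library, by time point, in luminal (red circles) and basal (blue squares) cells, with lines through the means of W10 to Iw4 and a short bar for the mean of M4. *Prlr* libraries of the 2 cell types do not overlap at any time point, nor do those of *Cav1*.

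The receptor *Prlr* was the most abundant of the 9 genes per kilobase of exon in luminal cells, with a median of 59.0 CPM per kilobase against 20.6 for *Akt1*, the next. In luminal cells it stood at 1572, 3455 and 2685 CPM at W10, at 710, 871 and 689 CPM at P3.5 and at 353, 249.9 and 269 CPM at P14.5. It stood at 799, 1016 and 466 CPM at L3, 656, 521 and 696 CPM at L10, 1659, 802 and 1564 CPM at Id2, 1633, 2965 and 938 CPM at Iw4 and 2733, 1240 and 1446 CPM at M4. The mean was 8.85 times as high at W10, the highest time point, as at P14.5, the lowest. In the order of the means (W10, Iw4, M4, Id2, L3, P3.5, L10, P14.5), the ranges of neighbours overlapped except for L10 and P14.5.

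In basal cells *Prlr* was lower in each of the 22 sorts with both libraries. Its basal values were 104, 576 and 60.8 CPM at W10, 35.9, 62.8 and 44.0 CPM at P3.5 and 24.0 and 94.7 CPM at P14.5. They were 213, 8.25 and 14.9 CPM at L3, 13.2 and 46.0 CPM at L10 and 517, 99.8 and 95.8 CPM at Id2. They were 352, 251 and 55.1 CPM at Iw4 and 225, 95.9 and 268 CPM at M4. Libraries of a basal condition lay far apart, most of all at W10 and L3, where 1 library stood above the other two. The W10 basal library with the highest *Prlr* also had the highest sum of the 8 luminal markers at W10 (1831 CPM against 1028 and 435 CPM). So did the L3 basal library with the highest *Prlr* (1095 CPM against 870 and 519 CPM). The basal library highest in *Prlr* was also highest in that sum at P3.5, P14.5, Id2 and Iw4, but not at L10 or M4. The part of luminal cells in the basal *Prlr* values was not tested. Reads were counted per gene, so the long and short forms of the receptor were not separated, and 1.32% of its exon bases are shared with another gene in a later annotation (GENCODE M21).

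From the never-pregnant gland (W10 and M4) to lactation (L3 and L10), *Prlr* fell in basal cells by 2.55 ± 0.60 on the log2 scale (adjusted p = 9.7e-04). The 5 lactation libraries ran from 8.25 over a median of 14.9 to 213 CPM and the 6 never-pregnant ones from 60.8 over 165 to 576 CPM, with an overlap set by L3 replicate 4. This call was lost without basal L10 replicate 5 (-2.12, adjusted p = 0.016). Over the fits that left out 1 library the change ran from -3.24 to -2.08. Sums of markers of other cell types were higher in the same lactation libraries than in the never-pregnant ones, for pericytes (1513 to 15269.9 against 92.0 to 192 CPM), endothelial cells (404 to 905 against 18.9 to 127 CPM) and fibroblasts (752 to 5651 against 220 to 631 CPM), and their part in the fall was not tested. In luminal cells the 6 lactation libraries (466 to 1016 CPM, median 676) lay below the 6 never-pregnant ones (1239.5 to 3455 CPM, median 2128), and the change of -1.60 ± 0.57 had an adjusted p of 0.027, past 0.01. It was called without basal L3 replicate 4 (-1.60, adjusted p = 0.0081), a library of the other cell type that enters through the shared estimate of the spread. The difference between the 2 changes was -0.95 ± 0.83 (adjusted p = 0.47).

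Milk protein transcripts take up a large share of reads in lactation, which bears on every value scaled to library size. The 6 milk protein genes made up a median of 31.7% of reads in luminal lactation libraries, against 2.80% in luminal never-pregnant ones, and 2.06% against 0.242% in basal libraries. The authors' scaling left the median log2 fold change of all genes at -0.01 in luminal and -0.05 in basal cells. When each library was instead scaled to its sum without those 6 genes, the medians moved to -0.31 and -0.35, and luminal *Prlr* was called (-2.07, adjusted p = 0.003). This setting, named scaling without milk protein genes throughout, also replaced the authors' effective library sizes with plain sums. The part of the milk protein genes alone in its shifts, here and in the other results, was not tested. The lactation libraries form amplification batch 5 by themselves, while W10 was in batch 4 and M4 in batches 1 to 3, so batch and lactation cannot be told apart.

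*Jak2*, the kinase that the receptor uses, was lowest in luminal cells at L3 (41.7, 70.8 and 65.9 CPM) and highest at W10 (137, 147 and 111 CPM). Its luminal values at Id2 were 114, 135 and 133 CPM. It varied over the time points in both cell types by the F test (adjusted p = 0.0028 in luminal and 7.4e-07 in basal cells). In basal cells it ran from 29.0 to 37.7 CPM at P3.5 and stood at 53.1, 58.7 and 54.6 CPM at L3 and 45.0 and 24.6 CPM at L10. At Id2 the 3 basal libraries were at 346, 90.0 and 152 CPM, each above all other basal libraries, and at Iw4 they were at 57.2, 62.9 and 47.4 CPM. The rise from L10 to Id2 was 2.30 ± 0.31 (adjusted p = 1.1e-06) and the fall to Iw4 was -1.58 ± 0.28 (adjusted p = 3.8e-05). Both rest on the basal Id2 libraries described above, and the highest value belongs to replicate 2, the library with 9485 CPM of endothelial markers. Left-out libraries moved the rise, which ranged from 1.78 to 2.75 over the fits that left out 1 library. The part of the other cell types was not tested. With Id2 left out of the F test, basal *Jak2* still varied over the other time points (adjusted p = 6.2e-04). In lactation, luminal *Jak2* was lower by 0.69 ± 0.20 on the log2 scale (adjusted p = 0.0066), which is 1.61-fold and so not called. It was called when libraries were scaled without milk protein genes (-1.15), where the median of all genes was -0.31.

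*Stat5a* and *Stat5b* encode the 2 STAT5 proteins. The genes are close relatives, and reads that match both cannot be assigned, so their split is uncertain. Per kilobase of exon, *Stat5a* stood above *Stat5b* with a median ratio of 1.79 in luminal libraries (range 1.01 to 2.91) and 1.93 in basal libraries (range 0.474 to 3.61). The ratio was under 1 in 3 basal libraries, L3 replicate 6 (0.995), L10 replicate 6 (0.900) and Id2 replicate 2 (0.474). In luminal cells *Stat5a* stood at 115, 55.8 and 56.4 CPM at W10, 115, 73.5 and 214 CPM at L3, 145, 73.4 and 147 CPM at L10 and 51.9, 64.2 and 70.4 CPM at M4. Its 6 lactation libraries (median 130.1 CPM) overlapped the 6 never-pregnant ones (median 60.3 CPM), and the change was 0.83 ± 0.24 (adjusted p = 0.0059), a 1.78-fold rise that is under the fold required. It was called without luminal W10 replicate 3 (1.01) or luminal L3 replicate 5 (1.01). In basal cells *Stat5a* kept within 32.5 to 78.2 CPM over the 22 libraries and its change to lactation was -0.16 ± 0.25. The difference of the changes was -0.99 ± 0.34 (adjusted p = 0.038). *Stat5b* was highest in luminal L3 replicate 6, at 114 CPM against 43.1 and 30.6 CPM in the other L3 libraries, and its luminal change to lactation was 0.48 ± 0.26 (adjusted p = 0.17). By the F test neither gene passed an adjusted p of 0.01 in either cell type (0.050 and 0.53 in luminal, 0.86 and 0.27 in basal cells for *Stat5a* and *Stat5b*).

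Among the feedback genes, the change of *Cish* to lactation differed between the cell types, with lower levels in basal cells and no call in luminal cells. *Cish* encodes a SOCS protein that binds phosphorylated receptor sites, and it is a textbook STAT5 target. In luminal cells it stood at 34.2, 28.7 and 37.8 CPM at W10 and 22.1, 25.3 and 43.4 CPM at M4, and in lactation at 78.1, 44.7 and 50.1 CPM (L3) and 53.1, 72.0 and 40.0 CPM (L10). In basal cells it stood at 135, 53.6 and 69.8 CPM at W10 and 59.7, 45.4 and 69.8 CPM at M4, and in lactation at 62.2, 45.6 and 27.1 CPM (L3) and 40.9 and 14.7 CPM (L10). The groups overlapped in both cell types. *Cish* was the only one of the 9 genes whose change to lactation differed between the cell types at the thresholds used (basal change minus luminal change -1.84 ± 0.36, adjusted p = 3.0e-04), beside 10.3% of all genes. It kept that call in each of the 46 fits that left out 1 library (-2.19 to -1.48), and the value was -1.82 with edgeR (adjusted p = 9.9e-04). The basal fall alone was -1.04 ± 0.26 (adjusted p = 0.0021), at a fold of 2.05, and this call was lost when basal W10 replicate 3 (-0.85), L3 replicate 6 (-0.88), L10 replicate 6 (-0.69) or M4 replicate 6 (-0.97) was left out. The luminal change of 0.80 ± 0.25 (adjusted p = 0.012) was not called. Pericyte markers moved with the basal change, with sums of 1513 to 15269.9 CPM in lactation against 92.0 to 192 CPM, and the library with the lowest *Cish*, L10 replicate 6, had the highest sum. Endothelial, fibroblast and adipocyte sums were also higher in the basal lactation libraries, without overlap. The part of these cell types in the basal change was not tested. *Cish* was also lower at P3.5 than at W10 in basal cells (-1.31 ± 0.35, adjusted p = 0.0088), where W10 replicate 3 held the highest value. That call was lost in 13 of the 46 fits that left out 1 library, with the smallest change without that library (-0.93, adjusted p = 0.10), and also with a pseudocount of 0.1 (adjusted p = 0.011) and with scaling without milk protein genes (-1.16, adjusted p = 0.018).

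The promoter of *Cish* is shown because STAT5 binds the letters TTCNNNGAA, which read the same on both strands. The RefSeq promoter table (GRCm38.p6) holds windows of 250 bases before and 50 after each gene's start. Of its 32851 windows, 8.30% held at least 1 match and 0.46% held 2 or more. Of 14 windows of the 9 genes (*Socs2* had no entry), the *Cish* window and 1 of the 3 *Prlr* windows held a match. Of 18 windows of the 14 milk and other STAT5 target genes (11 with an entry), 4 did, those of *Csn2*, *Csn1s1*, *Csn1s2a* and *Glycam1*. The 2 casein genes with a match close before the start are shown beside *Cish* and *Prlr*. The *Cish* matches begin at positions 1 and 12 counted from the start site, those of *Csn2* (beta casein) at -93 and of *Csn1s1* (alpha casein) at -100, and that of *Prlr* at -110. Each line gives 30 bases of the gene's own strand, with the matches in capitals.
Cish, chr9:107296654-107296683, plus strand: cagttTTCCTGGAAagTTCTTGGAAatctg
Csn2, chr5:87699499-87699528, minus strand: tcacgtagacTTCTTGGAAttgaagggact
Csn1s1, chr5:87666098-87666127, plus strand: tttgtaacaaTTCTTAGAAtttatgtaaaa
Prlr, chr15:10223786-10223815, plus strand: gcaaaatgagTTCTAGGAAtaagggatatc
The second *Cish* match and the *Csn2* match have the same 9 letters. No binding was measured, and the matches are a description of the sequence. Casein transcripts rose in both cell types in lactation, as given below.

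*Socs1*, whose product blocks JAK kinases directly, was the rarest of the 9 genes. In luminal libraries it ran from 0 over a median of 0.695 to 3.59 CPM and in basal libraries from 0.156 over 4.05 to 13.7 CPM. It was listed at 0 in 2 of 3 luminal libraries at L3, 1 at L10 and 1 at Id2. It was higher in the basal library in 20 of 22 sorts, and basal values ran from 0.634 to 12.2 CPM in lactation and from 1.87 to 5.33 CPM in the never-pregnant gland. Its log2 fold changes understate its folds at these levels: edgeR on the reads gave 2.46 between the cell types against 1.41 here. The changes to lactation (0.00 ± 0.43 in luminal, 0.08 ± 0.45 in basal cells) were smaller than their errors. *Socs2*, which restrains growth hormone and prolactin signals, was at like levels in the 2 cell types, with medians of 29.5 CPM in luminal and 30.3 CPM in basal libraries, and was higher in the basal library in 11 of 22 sorts. At basal Id2 it stood at 213, 37.1 and 63.0 CPM. Replicates 2 and 6, which stand apart by their markers, were above all basal libraries of other time points (at most 54.3 CPM), and replicate 4 was within their range. Its rise from basal L10 to Id2 was 1.60 ± 0.47 (adjusted p = 0.011), called with the sort as a block (adjusted p = 0.0079) and with edgeR (1.98).

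**Figure D3:**
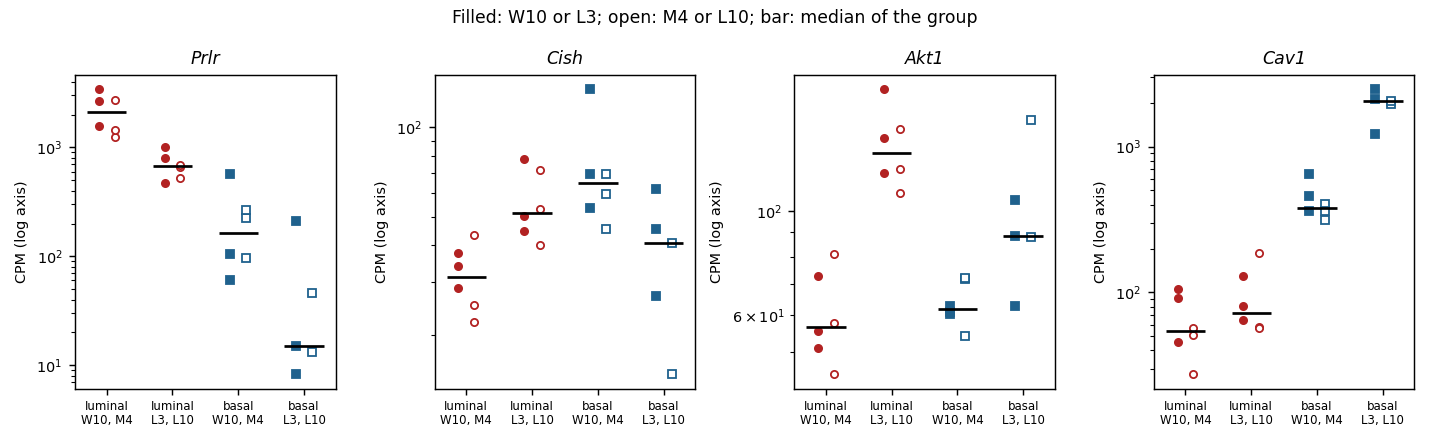
CPM (log axis) of *Prlr*, *Cish*, *Akt1* and *Cav1* in each never-pregnant library (filled, W10; open, M4) and each lactation library (filled, L3; open, L10), luminal in red and basal in blue, with bars at the group medians. Medians of *Cish* are 31.4 and 51.6 CPM in luminal and 64.8 and 40.9 CPM in basal cells.

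*Akt1* was the one gene called in luminal cells between lactation and the never-pregnant gland, beside 13.2% of all genes. It stood at 72.6, 51.1 and 55.5 CPM at W10 and 44.9, 81.2 and 57.8 CPM at M4, against 182, 143 and 120.3 CPM at L3 and 149, 123 and 109 CPM at L10. The groups did not overlap, and the rise was 2.27-fold (1.18 ± 0.16, adjusted p = 7.0e-07). Scaled without milk protein genes, the rise was 0.72 (adjusted p = 0.001) where the median of all genes was -0.31, and it was no longer called. At P14.5 luminal *Akt1* was at 118, 78.6 and 90.3 CPM and at Id2 at 115, 126 and 86.3 CPM. In basal cells the lactation libraries held 105, 88.3 and 62.9 CPM (L3) and 88.2 and 156 CPM (L10), a change of 0.64 ± 0.17 (adjusted p = 0.0041) that is 1.56-fold. The difference between the cell types was -0.55 ± 0.24 (adjusted p = 0.11). In the luminal lactation libraries the 8 basal markers summed to between 283 and 2464 CPM, against 92.5 to 201 CPM in the never-pregnant ones. The 6 endothelial markers summed to between 34.1 and 419 CPM against 4.26 to 30.3 CPM, and the 6 immune markers to between 18.6 and 260.2 CPM against 9.09 to 17.8 CPM. The part of these cells in the luminal changes, those of *Cav1* and *Cavin1* included, was not tested. *Akt1* varied over the time points in both cell types (F test, adjusted p = 2.6e-05 in luminal and 0.0092 in basal cells).

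*Cav1*, the caveolin gene, was higher in basal than in luminal cells in 22 of 22 sorts, and the basal level rose in lactation. In basal cells it stood at 361, 460.4 and 651 CPM at W10 and 403, 313 and 359 CPM at M4. In lactation it stood at 2492, 2106 and 1229 CPM (L3) and 1957 and 2065 CPM (L10), above all of the never-pregnant libraries. The rise was 4.68-fold (2.23 ± 0.40, adjusted p = 3.0e-05). At Id2 basal values were 1621, 948 and 382 CPM, and at Iw4 340.1, 426 and 541 CPM. Of the 9 genes, *Cav1*, *Cish* and *Prlr* were called between basal lactation and the never-pregnant gland, beside 16.5% of all genes. Basal lactation libraries also carried more markers of blood vessel cells. The 5 pericyte markers, all above 0, summed to between 1513 and 15269.9 CPM (most abundant, *Rgs5*), against 92.0 to 192 CPM in never-pregnant ones, and the 6 endothelial markers to between 404 and 905 CPM against 18.9 to 127 CPM. Pericytes and endothelial cells express caveolin, and their part in the rise was not tested. The Lin- gate used antibodies to CD31, CD45 and CD11b, which mark endothelial and immune cells. It also used one to CD140a, a fibroblast marker, listed as raised to the human protein. None of the antibodies listed for the gate was to a pericyte marker. The basal markers summed to between 37485 and 70414 CPM in the same lactation libraries against 11827 to 25976 CPM, and *Acta2* and *Myh11*, the most abundant of them, are smooth muscle genes that pericytes also express. Fibroblast markers summed to between 752 and 5651 CPM against 220 to 631 CPM, and 2 of 6 adipocyte markers were in the table, with sums of 157 to 283 CPM against 0.61 to 2.97 CPM, made mostly by *Lep* (138 to 278 CPM in lactation).

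In luminal cells *Cav1* was lowest in P14.5 replicate 3, at 72.6, 6.68 and 18.2 CPM in the libraries of that time point, then at 80.4, 129.9 and 64.2 CPM at L3 and 57.5, 187 and 57.1 CPM at L10. The rise from P14.5 to L3 (2.00 ± 0.53, adjusted p = 0.0085) was called, but not with edgeR (1.49, adjusted p = 0.067) or with scaling without milk protein genes (1.60, adjusted p = 0.02). The call was lost in 12 of the 46 fits that left out 1 library, with the smallest change, 1.24 (adjusted p = 0.14), without luminal P14.5 replicate 3. The change from the never-pregnant gland to lactation was 0.58 ± 0.37 (adjusted p = 0.25). The luminal L10 library with 187 CPM also had the highest basal marker sum of the luminal libraries, 2464 CPM, and the part of basal cells in it was not tested. The change to lactation was larger in basal than in luminal cells by 1.65 ± 0.55, with an adjusted p of 0.029 that did not pass 0.01. Without that L10 library, luminal replicate 5, the difference was called (1.93, adjusted p = 0.0086).

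**Figure D4:**
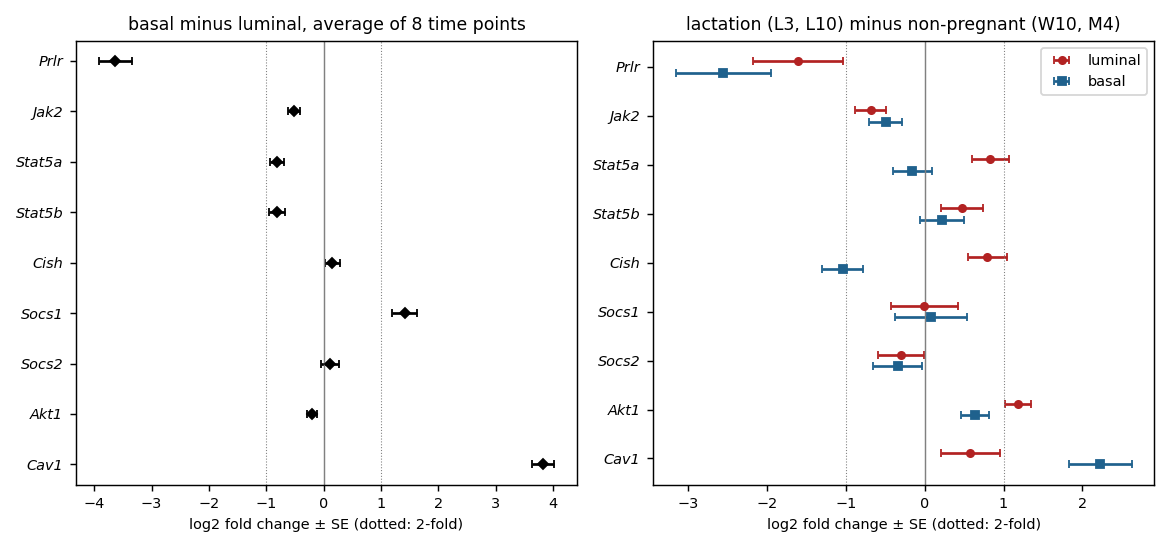
Log2 fold changes with standard errors of the 9 genes between basal and luminal cells averaged over 8 time points (left), and between lactation and the never-pregnant gland in luminal (red) and basal (blue) cells (right). Dotted lines mark 2-fold, and *Cish* lies at 0.80 in luminal and -1.04 in basal cells.

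Over the cycle, *Jak2*, *Cish*, *Akt1* and *Cav1* varied in luminal cells (4 of 9 genes at an adjusted p under 0.01, beside 34.0% of all genes), and the same 4 and *Prlr* varied in basal cells (5 of 9, beside 44.5%). With edgeR, 2 of the 9 were called in luminal cells, without *Cish* (adjusted p = 0.012) and *Cav1* (adjusted p = 0.013). Scaling without milk protein genes also left 2 in luminal cells, as did leaving out luminal P14.5 replicate 5. The basal count fell to 3 without basal W10 replicate 3, L3 replicate 5 or M4 replicate 6. In basal cells edgeR called *Socs2* (adjusted p = 6.1e-04) and not *Prlr* (adjusted p = 0.019). With Id2 left out of the limma F tests, the same 5 of the 9 genes were called in basal cells. They included *Prlr* (adjusted p = 0.0056) and not *Socs2* (adjusted p = 0.86), whose highest basal values were in Id2 replicates 2 and 6. Between successive time points, 1 of 54 luminal comparisons of these genes was called, the rise of *Cav1* from P14.5 to L3. The share of all genes called in luminal cells was 1.82% from W10 to P3.5, 1.52% to P14.5, 6.17% to L3, 0.381% to L10, 4.56% to Id2 and 10.5% to Iw4. In basal cells 3 of 54 were called, the fall of *Cish* from W10 to P3.5 and the rise and fall of *Jak2* around Id2, beside 6.76%, 3.64%, 3.89%, 1.14%, 13.3% and 17.4% of all genes in the same order of steps. Between the parous gland at Iw4 and the age-matched never-pregnant gland at M4, none of the 9 was called in either cell type by limma or by edgeR, and none reached an unadjusted p under 0.05. Among all genes 0% were called in luminal and 0.00586% in basal cells, while 392 and 322 reached an unadjusted p under 0.05. The largest difference among the 9 was that of luminal *Cav1*, -0.77 ± 0.53.

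Around these 9 genes, 55 other genes of the pathway were followed in 8 lists. Between the cell types 22 of the 55 were called, 7 higher and 15 lower in basal cells, beside 21.0% of all genes. The median log2 fold change of the 55 was -0.13 and that of all genes 0.02. Of the 14 STAT5 targets 11 were lower, led by *Csn2* (-4.08 ± 0.31), *Csn1s2a* (-3.98 ± 0.32) and *Csn1s1* (-3.98 ± 0.28), which encode caseins. A single target, *Igf2* (insulin-like growth factor 2, named after its values were seen), was higher in basal cells (2.09 ± 0.27), but 62.8% of its exon bases are shared with another gene in GENCODE M21, so its reads are uncertain. Of 4 JAK kinase genes, *Jak3* was called (-1.42 ± 0.20). Of the 7 STAT genes none was called by limma and 1, lower in basal cells, by edgeR. *Socs3*, the SOCS gene that restrains STAT3 signals, was called higher in basal cells with *Socs1* (3.10 ± 0.15), as was *Pias3* (1.23 ± 0.10), an inhibitor of STAT3. Beside the receptor, *Erbb4* (-3.04 ± 0.24), another receptor that activates STAT5A, and the adaptor gene *Gab2* (-1.14 ± 0.16) were lower. Of 8 PI3-kinase and AKT genes 1 was called higher and 1 lower in basal cells. The lower one, *Pik3cb*, a catalytic subunit of PI3-kinase, was at -1.27 ± 0.10. Of 6 caveolar genes 4 were higher in basal cells, with *Cavin1* (3.90 ± 0.16) and *Cavin2* (2.73 ± 0.20) beside *Cav1*. The fourth, *Cavin3* (1.87 ± 0.21), was named after its values were seen.

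In luminal lactation 15 of the 55 were called, 11 higher and 4 lower than in the never-pregnant gland, beside 13.2% of all genes. The median was 0.14 against -0.01 over all genes. Of the 14 STAT5 targets 8 were higher and 2 lower, with a median of 3.41. *Csn1s2b* (10.70 ± 0.62), *Glycam1* (10.31 ± 1.05) and *Wap* (9.56 ± 0.74) changed most, and since the W10 libraries hold *Csn1s2b* at or under the floor its fold depends on the pseudocount. The 2 lower targets were *Tnfsf11* (-1.67 ± 0.49), which encodes RANKL, and *Ccnd1* (-1.43 ± 0.36), which encodes cyclin D1 and shares 23.4% of its exon bases with another gene in GENCODE M21. Both were named after their values were seen. *Socs3* rose by 1.59 ± 0.28 and *Socs6* fell by 1.64 ± 0.18 (both log2). *Ptpn2*, a phosphatase of JAK and STAT proteins, fell by 1.06 ± 0.18, and *Pik3r1*, the regulatory subunit of PI3-kinase, rose by 1.18 ± 0.23. *Cavin1* rose by 1.63 ± 0.30. Scaled without milk protein genes, 10 of the 55 were higher and 11 lower, and the split went from 1 higher and 1 lower to 1 and 3 for the SOCS genes and from 1 and 0 to 1 and 3 for the caveolar genes. The 2 calls among the 8 PI3-kinase and AKT genes, *Akt1* and *Pik3r1*, were then both lost.

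In basal lactation 11 of the 55 were called, each higher, beside 16.5% of all genes, and the median was 0.25 against -0.05. Scaled without milk protein genes the split was 10 higher and 6 lower, and that of the 6 caveolar genes went from 3 and 0 to 3 and 1. The 8 PI3-kinase and AKT genes went from 1 higher to 1 lower. Of the 14 STAT5 targets 7 were higher, led by *Csn1s2b* (7.72 ± 0.66), *Wap* (6.53 ± 0.78) and *Glycam1* (6.38 ± 1.12). *Csn2*, named after its values were seen, rose by 3.71 ± 0.63 in basal cells, to 4343 to 19852 CPM against 99220.5 to 688943 CPM in luminal lactation libraries. The part of milk transcripts carried over from luminal cells was not tested. *Gab2* rose by 2.75 ± 0.32, and of the caveolar genes *Cavin1* rose by 2.44 ± 0.32 and *Cavin3* by 2.12 ± 0.43 with *Cav1*. The change to lactation differed between the cell types for 4 of the 55, beside 10.3% of all genes, each with the higher change in basal cells, among them *Cavin3* (3.09 ± 0.59), *Gab2* (2.53 ± 0.44) and *Ccnd1* (2.12 ± 0.53). With edgeR 3 of the 55 and 1289 of all genes were called, and *Ccnd1* was not. With the sort as a block 7 of the 55, 5 higher and 2 lower, and 2195 of all genes were called. The pericyte and endothelial sums given for *Cav1* moved with these genes too.

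**Figure D5:**
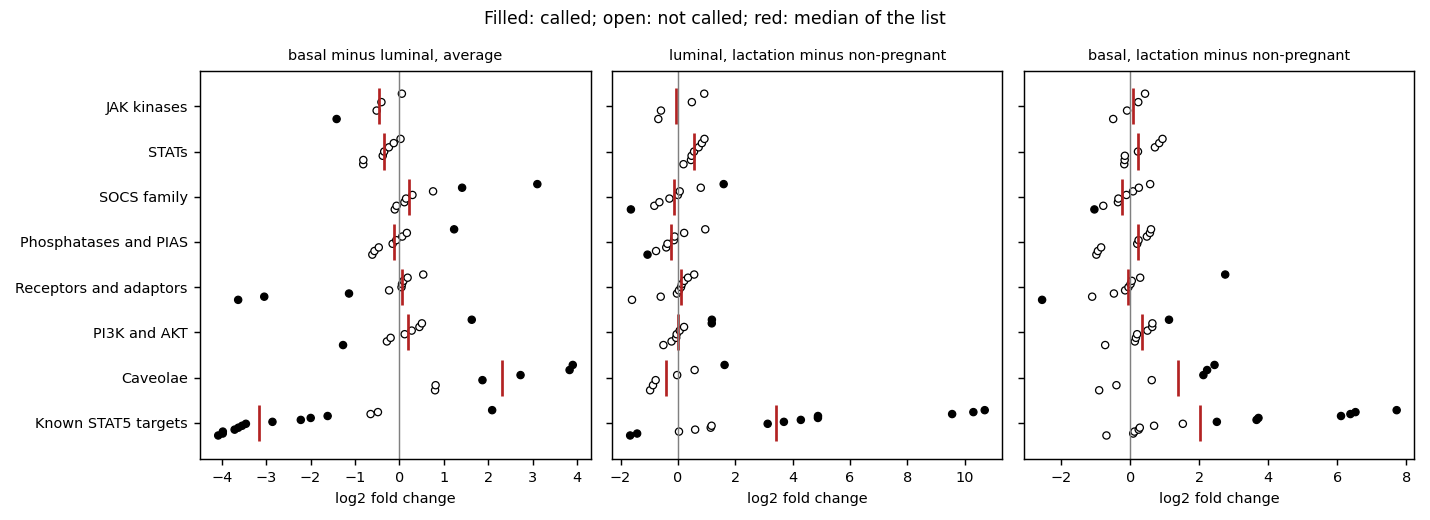
Log2 fold change of each gene in 8 pathway lists (the 9 genes included) between the cell types and in lactation, called genes filled, list medians as red lines. The STAT5 targets have medians of -3.16, 3.41 and 2.02 in the 3 panels.

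The genes whose pattern over the 16 condition means was most like that of each of the 9 were found among 10580 genes with a mean of at least 5 CPM. The means of both cell types enter, so a gene that differs between them correlates with others that do. For *Prlr* they were *Tmem56* (Pearson r = 0.982), *Tmprss2* (0.970) and *Sptlc3* (0.957), and for *Cav1* they were *Cavin1* (0.985), *Ehd2* (0.983) and *Nhsl2* (0.983). *Cavin1* and *Ehd2* encode proteins of caveolae. *Stat5a* was most like *Fads2* (0.955), *Arf3* (0.948) and *Clpx* (0.936), and *Stat5b* was most like *Folr1* (0.954), *Muc1* (0.950) and *Rab3d* (0.949). For *Akt1* they included *Prkar2a* (0.935) and *Pigq* (0.930), and for *Jak2* they were *Hsd3b7* (0.935), *Vmp1* (0.885) and *Tpm3-rs7* (0.879). The best match of each feedback gene was weaker than those of the other 6. *Socs1* was most like *Pde6d* (0.897), *Sdc3* (0.892) and *Akap7* (0.892), *Socs2* like *Ampd3* (0.879), *Timp1* (0.859) and *Pofut1* (0.848), and *Cish* like *Abcc10* (0.835), *Mlxip* (0.814) and *Tnik* (0.808). Among the 9 themselves, *Stat5a* and *Stat5b* gave r = 0.788 and *Prlr* and *Cav1* gave -0.855. *Cish* gave values between -0.162 and 0.261 with the other 8.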

How the data were processed

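RNA-seq libraries were deposited by the authors as a single table of normalised signal per gene: reads aligned with GSNAP to mm9, counted per gene and divided by edgeR's effective library size to CPM, which is signal and not a raw count. Whole reads were recovered from the steps of the values (100% whole within 0.01). Tests were limma 3.58.1 (R 4.3.3) on log2(CPM + 1) in 1 model of 16 conditions, Benjamini-Hochberg adjusted over 17078 genes, with edgeR 4.0.16 quasi-likelihood tests on the recovered reads as an alternative. This scale understates folds of low genes. Lactation is the mean of L3 and L10, never-pregnant that of W10 and M4. Named were the 9 genes, the called genes of each pathway list (at most 3), the top marker genes and the 3 genes most alike in pattern. The members and lists were chosen with earlier results of these data known. The third basal P14.5 library was removed by the authors and was not analysed here. Same-numbered libraries came from the same pooled mice, and the deviations of 22 luminal and basal pairs had a median correlation of 0.31. The scripts were tested on simulated data. Some genes that the rule names are not reported here.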

Additional observations from a re-analysis of the deposited data

Results flagged for a closer look

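The change of *Cish* from the never-pregnant gland to lactation differed between the cell types, by the test of the difference itself. The change in basal cells minus that in luminal cells was -1.84 ± 0.36 on the log2 scale (limma, adjusted p = 3.0e-04), with changes of -1.04 in basal and 0.80 in luminal cells. Of the other 8 genes none passed that test, which 10.3% of all genes passed. Pericyte marker sums were 1513 to 15269.9 CPM in the basal lactation libraries and 92.0 to 192 CPM in the basal never-pregnant ones. In the same libraries endothelial sums were 404 to 905 against 18.9 to 127 CPM and fibroblast sums 752 to 5651 against 220 to 631 CPM. Adipocyte sums were 157 to 283 against 0.61 to 2.97 CPM. In luminal libraries basal marker sums were 283 to 2464 CPM in lactation against 92.5 to 201 CPM. The part of these cells in the difference was not tested.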

How the results depend on the processing

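Averaged over time points, 3 of the 9 genes were called under each alternative but the filter at a mean of 5 CPM, which drops *Socs1* and left 2, and in each fit that left out 1 library. Leaving out 1 library at a time moved the counts to 18 to 23 (single time points), 1 to 2 (luminal lactation), 2 to 3 (basal lactation), 1 to 2 (difference of the changes), 0 to 1 (luminal steps), 2 to 6 (basal steps), 2 to 5 (luminal F) and 3 to 5 (basal F). Scaling without milk protein genes gave 2 luminal lactation calls, 0 luminal steps and 2 luminal F calls. edgeR gave 0 luminal steps, 5 basal steps and 2 luminal F calls. A false discovery rate of 0.05 gave 2 luminal lactation calls, 2 differences of the changes and 7 basal steps. The filter at 5 CPM gave 5 basal steps. Small values changed sign. Scaled without milk protein genes, *Socs2* between the cell types was -0.008, and in basal lactation *Stat5b* was -0.225 and *Socs1* -0.291, with a *Socs1* difference of the changes of -0.127. *Socs2* between the cell types was -0.005 with Id2 left out, an alternative chosen after seeing the data. *Socs1* was 0.082 in luminal lactation with edgeR and -0.076 in basal lactation with a pseudocount of 0.1, and the *Socs2* difference was 0.004 with median-ratio scaling. With 1 library left out, *Socs1* in luminal lactation ran from -0.211 to 0.339, and in basal lactation *Stat5a* from -0.394 to 0.082 and *Socs1* from -0.327 to 0.435. Differences of the changes ran from -0.019 to 0.404 (*Jak2*), -0.451 to 0.021 (*Stat5b*), -0.323 to 0.438 (*Socs1*) and -0.279 to 0.144 (*Socs2*). The sort as a replicate block gave 3 calls between the cell types and moved no count of the 9 genes by over 1.5 times. With the amplification batch as a term, 0 of the 9 differed between Iw4 and M4. The cause of these shifts was not tested. Depth limits *Socs1* in luminal libraries, which hold 0 to 38 reads of it.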
